A study of Homo sapiens with 6 samples.

Results

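Pericentromeric accessible sites are the peaks of open chromatin that lie closest to the centromeres. Peaks of 6 lists that overlapped by at least 1 bp were merged into regions. On chromosomes 1 to 12 and 16 to 20 the longest stretch without a merged region was taken as the centromere gap, and every merged region within 3 Mb of either side of it was a member. There were 9622 members among 248031 merged regions, of which 212335 lay on these 17 chromosomes. The members were chosen from the peak positions of all 6 libraries together, without regard to genotype, so their number and position are a description. They were set against 32550 regions at 5 to 15 Mb from the same gaps, called the flank below.

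The libraries were ATAC-seq libraries, made by a transposase that inserts adapters where DNA is open. They came from U2OS, an established human osteosarcoma cell line, with 3 libraries of CRAMP1 knockout cells (CRAMP1-KO) and 3 of wild-type cells (WT). No treatment is named in the labels and both genotypes grew in the same medium. The labels do not say whether the knockout is 1 clone or whether replicates were separate cultures, so the p-values speak of the spread among these 6 libraries, part of which may be technical. Lists held 133756, 139242 and 157997 peaks in CRAMP1-KO and 198875, 151646 and 132686 in WT. WT replicate 1 stood apart, with the longest list and a relative depth index of 3.80 against 1.74 to 2.43 in the others, so results that move without it are given both ways. Its median fold enrichment over local background was also the lowest, at 3.76 near the gap against 5.36 to 5.70 in the others.

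A centromere is built on long arrays of satellite repeats, and the DNA beside it, the pericentromere, is rich in satellites, duplicated segments and compact heterochromatin marked by methylated histone H3 and HP1. Short reads from such repeats are hard to place, and assemblies leave gaps there. Linker histone H1 binds where DNA enters and leaves the nucleosome and helps to compact chromatin. CRAMP1 is known as a regulator of H1 genes. Unique sequence and active genes lie right up to the edge of the gaps on many chromosome arms.

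Sequences are shown for gene starts with a site within 2 kb, where a promoter gives the site its context. They are the promoters of the cell cycle genes CCNE1 (cyclin E1) and GINS1 (a subunit of the replication helicase), whose sites were lower in CRAMP1-KO under the median scaling described below, of HAO2 (a peroxisomal hydroxyacid oxidase), whose site was higher, and of ZNF33B, the zinc finger gene start with the highest pileup. Each holds 250 bases before and 50 after the start in RefSeq, on build GRCh38.p14. The HAO2 site lay 749 bp from the listed start, so by that distance its window does not cover the site. Capitals mark the letters of the GC box (GGGCGG), the CCAAT box (CCAAT), the TATA box (TATAAA) and the AP-1 site (TGACTCA) on either strand, and overlapping matches run together.
CCNE1, chr19:29811741-29812040, + strand: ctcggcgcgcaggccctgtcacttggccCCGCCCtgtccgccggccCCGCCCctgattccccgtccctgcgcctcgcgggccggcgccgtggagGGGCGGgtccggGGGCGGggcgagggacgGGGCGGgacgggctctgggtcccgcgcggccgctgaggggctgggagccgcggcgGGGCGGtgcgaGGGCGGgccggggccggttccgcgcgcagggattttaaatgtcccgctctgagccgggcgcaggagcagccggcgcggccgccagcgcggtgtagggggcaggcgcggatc
GINS1, chr20:25407423-25407722, + strand: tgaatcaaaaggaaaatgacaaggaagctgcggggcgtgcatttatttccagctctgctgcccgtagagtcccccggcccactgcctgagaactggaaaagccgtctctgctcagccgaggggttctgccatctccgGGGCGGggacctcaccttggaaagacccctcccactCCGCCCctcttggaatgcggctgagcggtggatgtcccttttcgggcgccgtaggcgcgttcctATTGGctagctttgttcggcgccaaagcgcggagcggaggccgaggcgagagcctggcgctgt
HAO2, chr1:119368535-119368834, + strand: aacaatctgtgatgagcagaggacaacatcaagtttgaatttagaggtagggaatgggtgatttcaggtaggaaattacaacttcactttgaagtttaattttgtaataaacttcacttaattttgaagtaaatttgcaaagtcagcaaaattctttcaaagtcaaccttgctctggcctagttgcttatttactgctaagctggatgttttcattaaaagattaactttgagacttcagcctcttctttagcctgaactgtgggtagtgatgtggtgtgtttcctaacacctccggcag
ZNF33B, chr10:42638521-42638820, − strand: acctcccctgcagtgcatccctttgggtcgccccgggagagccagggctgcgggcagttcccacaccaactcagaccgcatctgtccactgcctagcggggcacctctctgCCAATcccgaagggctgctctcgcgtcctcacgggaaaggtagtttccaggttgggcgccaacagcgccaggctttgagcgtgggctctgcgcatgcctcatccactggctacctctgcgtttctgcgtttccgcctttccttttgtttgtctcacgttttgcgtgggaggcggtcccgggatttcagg

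CCNE1 held 7 GC boxes in a window of 81.0% GC, and GINS1 held 2 GC boxes and 1 CCAAT box at 62.3% GC. ZNF33B held 1 CCAAT box at 62.3% GC. The HAO2 window held none of the motifs, at 37.0% GC and with 1 CpG, against 47 in CCNE1, 24 in GINS1 and 20 in ZNF33B. Of 35093 RefSeq promoters, 44.9% held a GC box, 34.6% a CCAAT box, 11.5% a TATA box and 4.95% an AP-1 site. Of 103 promoters of the listed pericentromeric genes with a site in all 6 libraries, 72.8%, 35.0%, 4.85% and 3.88% held these motifs in the same order. These genes were listed by hand and taken for their accessible site, some with several promoters. No share was computed for accessible promoters elsewhere, so the shares cannot be tied to the position near a gap. A match describes the letters only and is not evidence of a bound factor. The HAO2 letters describe the promoter window and not the site that rose, 749 bp from the listed start.

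All 17 gaps contained the listed centromere position of their chromosome, a single point that does not show whether the whole centromere band lay inside. They ran from 3.05 Mb on chromosome 17 to 21.2 Mb on chromosome 1, and no other empty stretch on these chromosomes exceeded 1.20 Mb. The members nearest a gap, apart from those that set its edge, were 258 bp away on chromosome 19, 528 bp on chromosome 2 and 575 bp on chromosome 17. Just inside the limit lay regions at 3.00 Mb on chromosomes 2, 18 and 10, with peaks in 6, 1 and 1 libraries, and just outside it, also at 3.00 Mb, lay regions on chromosomes 2, 9 and 7 with peaks in 6, 4 and 6 libraries. Merged over all 6 lists, regions were about as dense near the gap as in the flank, at 94.3 against 95.7 per Mb. Regions with a peak in 1 library made up 34.1% near the gap and 30.9% in the flank. Within each library peaks were sparser near the gap. CRAMP1-KO replicate 1, for example, had 4733 peaks over 102 Mb near the gap and 17468 over 340 Mb in the flank. Among the 34 chromosome sides the number ranged from 25 on 19p to 588 on 18p, with a median of 282.

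Accessible sites near the centromere were smaller and weaker than those of the flank in every library. Median peak width near the gap was 439, 411 and 442 bp in the CRAMP1-KO libraries and 338, 414 and 366 bp in the WT libraries, against flank widths of 467, 435 and 462 bp in CRAMP1-KO and 349, 431 and 381 bp in WT. The mean log2 difference, near minus flank, was -0.07 ± 0.0162 (SD, n = 6 libraries). The pileup at the summit, the number of fragments over that base as solved from the deposited fold enrichment and p, had a median of 35, 33 and 43 near the gap in CRAMP1-KO and 32, 39 and 30 in WT. In the flank it was 41, 39 and 52 in CRAMP1-KO and 38, 48 and 37 in WT, for a mean log2 difference of -0.27 ± 0.0313 (SD, n = 6 libraries). Over regions with a peak in all 6 libraries the log2 difference was smaller, from -0.06 in WT replicate 2 to -0.04 in WT replicate 1. Fold enrichment over local background was lower by a log2 difference of -0.18 ± 0.0146, and the background itself by -0.08 ± 0.0280 (SD, n = 6 libraries). Each of these held in 6 of 6 libraries, as did a higher share of peaks under 300 bp and a lower share of peaks in regions found in all 6 libraries. All 6 measures had an exact sign-flip p of 0.0312 (two-sided), which is also the adjusted p over the 6 and the smallest that 6 libraries can give.

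Of the members, 3113 (32.4%) had a peak in all 6 libraries, against 12244 (37.6%) of the flank and a background of 37.3% over all merged regions. A further 3283 members had a peak in 1 library only. More than any other library, WT replicate 1 held these, with 51.8% of them near the gap and 50.6% in the flank.

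In CRAMP1-KO a slightly smaller share of all peaks lay near the centromeres. The members held 4733, 4935 and 5555 peaks in CRAMP1-KO and 7710, 5522 and 4807 in WT, counts that overlap between the genotypes. As a share of the peaks on the 17 chromosomes this was 4.13%, 4.14% and 4.11% in CRAMP1-KO, against 4.53%, 4.27% and 4.24% in WT. Every CRAMP1-KO library lay below every WT library, with means of 4.13% ± 0.0148 in CRAMP1-KO and 4.35% ± 0.160 in WT (SD, n = 3 each; log2 difference -0.07, exact permutation p = 0.1, two-sided). With 3 libraries against 3 this is the smallest p the test allows. Without WT replicate 1 the log2 difference was -0.04, still without overlap.

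Set against the flank, the share was again lower. Peaks near the gap per peak of the flank came to 0.271, 0.271 and 0.269 in CRAMP1-KO and 0.292, 0.278 and 0.277 in WT, a log2 difference of -0.06 with no overlap (exact permutation p = 0.1, n = 3 each). In lists cut to the length of the shortest one the log2 difference shrank to -0.03 and the genotypes overlapped (exact permutation p = 0.4), and without WT replicate 1 it was -0.04. By bases covered in place of peaks it was -0.08, and the share of covered bases differed by -0.09 on the log2 scale, both without overlap (exact permutation p = 0.1, n = 3 each).

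By distance, the lower share reached beyond the 3-Mb limit. The log2 difference in share was -0.08, -0.10 and -0.04 at 0 to 1, 1 to 2 and 2 to 3 Mb from the gap, and only the step at 1 to 2 Mb was without overlap. From 3 to 8 Mb it lay between -0.05 and -0.02, with no overlap from 4 Mb on. From 8 to 15 Mb it lay between -0.02 and 0.01 and the genotypes overlapped in every step. The flank therefore included 3 Mb in which the share was also lower, and with a flank of 10 to 20 Mb the near-to-flank log2 difference was -0.08 (exact permutation p = 0.1, n = 3 each).

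**Figure D1:**
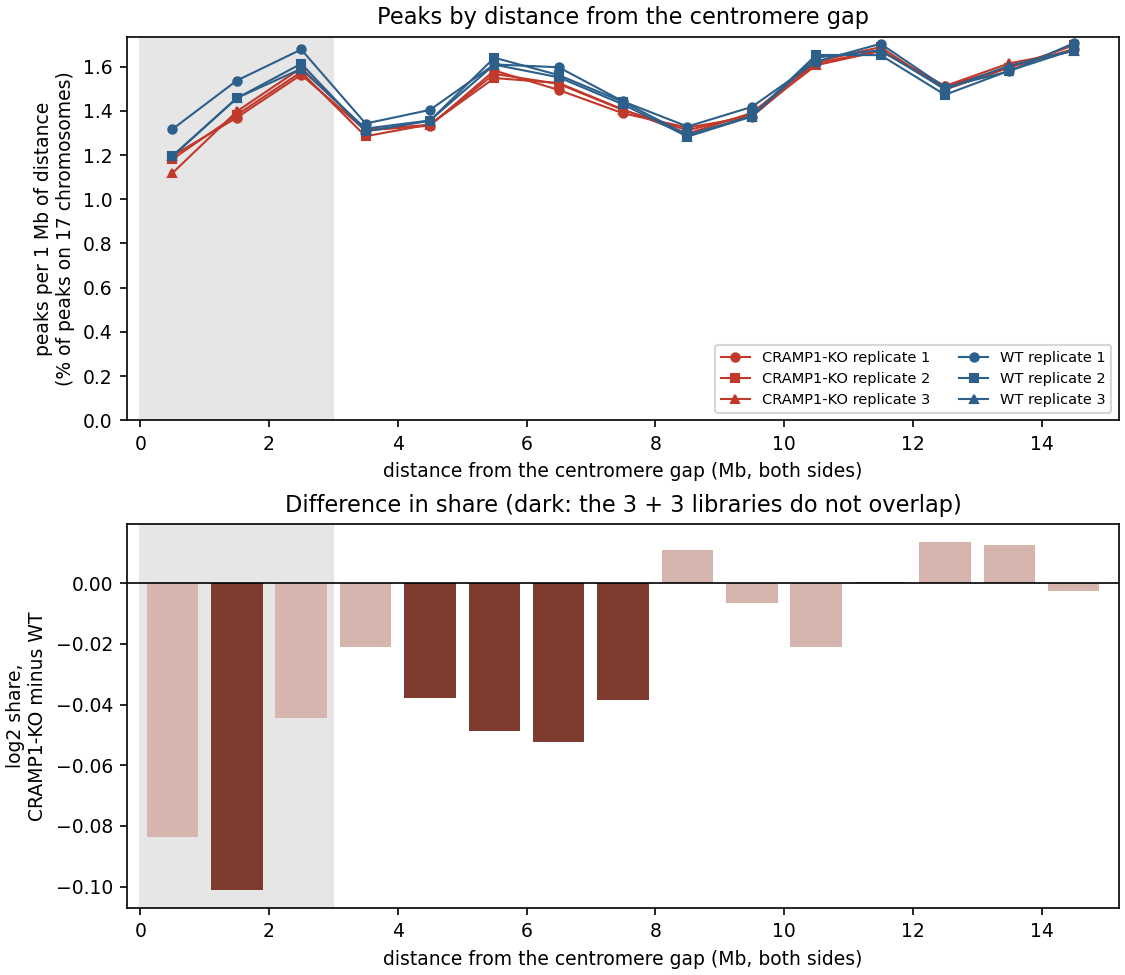
Upper panel, share of the peaks on 17 chromosomes (%) per 1-Mb step of distance from the centromere gap (Mb, both sides together), 1 line per library, with the first 3 Mb shaded. Lower panel, log2 difference in mean share, CRAMP1-KO minus WT, dark where the libraries do not overlap; the bars reach -0.10 at 1 to 2 Mb and stay between -0.02 and 0.01 beyond 8 Mb.

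The width of pericentromeric peaks overlapped between genotypes, at 431 ± 17.1 bp in CRAMP1-KO and 373 ± 38.4 bp in WT (SD, n = 3 each; exact permutation p = 0.2). Relative to the flank of the same library it was 0.940, 0.945 and 0.957 in CRAMP1-KO, against 0.968, 0.961 and 0.961 in WT. These ratios did not overlap (log2 difference -0.02, exact permutation p = 0.1, n = 3 each). Of 7 alternatives that kept all libraries, 1, without chromosome 18, kept them apart; in lists of equal length, for example, they overlapped (exact permutation p = 0.3).

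The pileup of the shared members, those with a peak in all 6 libraries, gave no separation from the flank by genotype. Median log2 pileup near the gap minus that in the flank was -0.05, -0.05 and -0.06 in CRAMP1-KO and -0.04, -0.06 and -0.05 in WT. The genotypes overlapped, with a difference of 0.0037 (exact permutation p = 0.7, n = 3 each). Within 2 Mb of the gap the difference was -0.05 without overlap (exact permutation p = 0.1). In peaks of at least 300 bp, a limit chosen after seeing the data, it was 0.05 without overlap (exact permutation p = 0.1), so its direction depended on which sites were taken.

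**Figure D2:**
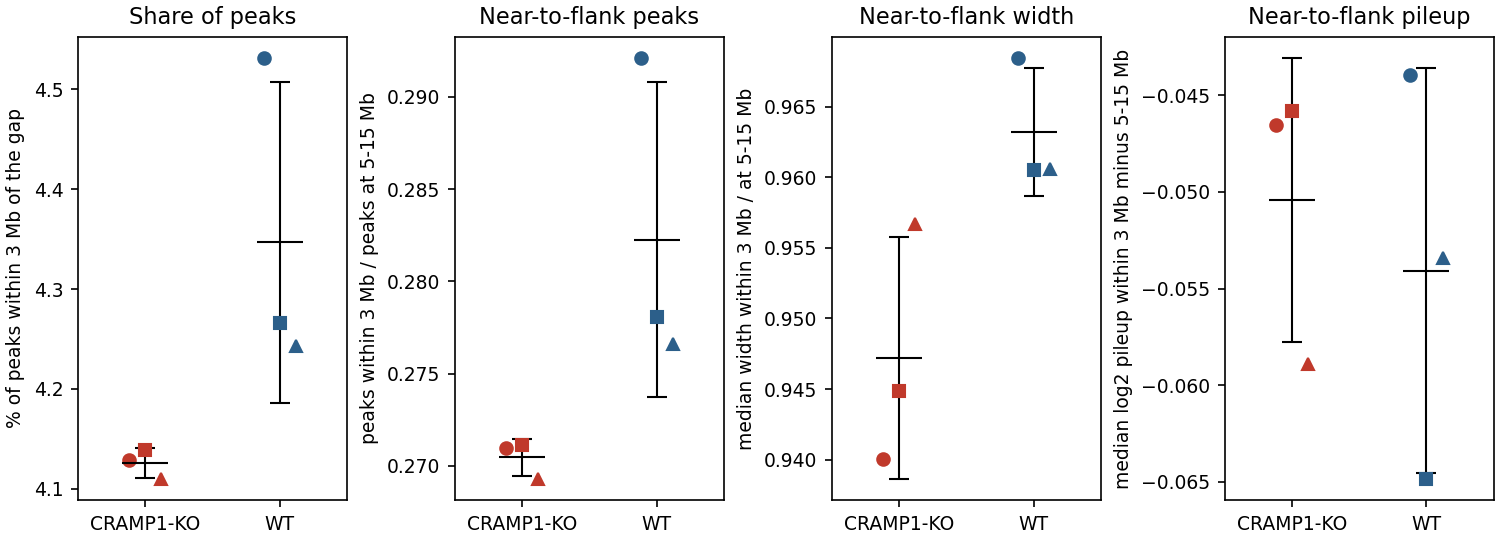
Each panel gives 1 value per library (circle, square and triangle for replicates 1, 2 and 3) with the mean and SD of 3 libraries; no vertical axis starts at 0. From left to right are the share of peaks within 3 Mb of the gap (%), peaks within 3 Mb per peak at 5 to 15 Mb, the same ratio of median peak widths, and the difference in median log2 summit pileup of shared regions; the first 3 separate the genotypes and the fourth does not.

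A small set of members was called in 3 of 3 libraries of 1 genotype and in 0 of 3 of the other. These were 54 CRAMP1-KO-only members (0.561%, against a background of 0.767% over all merged regions) and 108 WT-only members (1.12%, against a background of 1.14%). The flank held 244 CRAMP1-KO-only regions (0.750%) and 372 WT-only regions (1.14%). The number of CRAMP1-KO-only per WT-only region was 0.5 near the gap and 0.656 in the flank, and these counts carry no test, since regions are not replicates. Which genotype held more changed with the setting: there were 79 CRAMP1-KO-only and 66 WT-only members in lists of equal length, 61 and 55 in peaks of at least 300 bp, and 147 and 146 without WT replicate 1. The flank changed in the same way, with 335 and 252, 286 and 167, and 570 and 482 in these settings. The number of CRAMP1-KO-only per WT-only region was then 1.20, 1.11 and 1.01 near the gap and 1.33, 1.71 and 1.18 in the flank. The CRAMP1-KO-only count was 119, 116 and 87 (flank 472, 503 and 342) without CRAMP1-KO replicate 1 or 2 or WT replicate 2. The WT-only count was 260, 269 and 379 (flank 781, 806 and 1146) without CRAMP1-KO replicate 3, WT replicate 2 or WT replicate 3.

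The strongest CRAMP1-KO-only member, by median −log10 q, lay on chromosome 6 from 64722117 to 64722772, at 2.69 Mb on the long-arm side, with pileups of 44, 58 and 80 in the CRAMP1-KO libraries and no peak in WT. The next lay on the same arm from 64592221 to 64592438, with pileups of 47, 34 and 59 in CRAMP1-KO. The others among the first 5 were on 1p from 118790061 to 118790543, on 18p from 14739147 to 14739383 and on 4p from 46934083 to 46934390. The strongest WT-only member lay on 20q from 30622752 to 30623278, with pileups of 70, 66 and 46 in WT and no peak in CRAMP1-KO. It was followed by sites on 16q from 46950971 to 46951190, 18q from 20150542 to 20150880, 19q from 29396862 to 29397210 and 20p from 23999167 to 23999776. The median −log10 q was 50.6 in the first CRAMP1-KO-only site and 17.5 in the first WT-only site. Over the sets it was 7.85 for the CRAMP1-KO-only sites, which spanned a median of 334 bp, and 4.71 for the WT-only sites, which spanned 438 bp. They were spread over 26 sides and 31 sides of the 34.

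Among the 3113 shared members, tested one by one with limma on log2 pileup centred on each library's median, 270 rose in CRAMP1-KO (8.67%, against a background of 9.36% over all 92505 shared regions) and 452 fell (14.5%, against a background of 15.5%). Both shares were close to the background. In the flank 8.59% rose and 17.6% fell. The median log2 difference was -0.07 in the members, -0.08 in the flank and -0.07 over all shared regions. The split between rises and falls depended on the scaling: with pileups divided by the depth index the median over all shared regions was 0.09, and 90 members rose and 20 fell, against 2846 and 458 over all shared regions.

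Members called in both directions had moderate changes. The median log2 difference was 0.54 in those that rose and -0.45 in those that fell. In 61 of these 722 members, 40 that rose and 21 that fell, the background was at the lowest value of the library in all 6, which gives a fixed difference of -0.02. Of the other 661, 623 had a background that differed in the direction of the pileup, a count that the lowest values limit in part. In 258 it was called by limma as well, in the same direction. Pileup and background were solved from the same deposited values, and no such count was made over all called regions. The agreement in direction is therefore a description only. The local background by itself was called higher in 231 members and lower in 217, where the background over all shared regions was 8.71% higher and 8.41% lower. The part of the local background in these calls was not tested.

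The largest rise was on 3q from 94947317 to 94947780, at 1.39 Mb from the gap. Its pileups were 59, 64 and 81 in CRAMP1-KO and 27, 22 and 24 in WT. Divided by the library's median over all shared regions, these were 0.967, 1.03 and 0.844 in CRAMP1-KO and 0.278, 0.253 and 0.453 in WT, so that the groups stood apart (log2 difference 1.57, SE 0.19, limma adjusted p = 1.62e-09). The local background there was at the lowest value, with the fixed difference of -0.02. A second site on 3q, from 94998767 to 94999454, had pileups of 47, 45 and 77 in CRAMP1-KO and 22, 24 and 19 in WT, for a log2 difference of 1.44 (limma adjusted p = 3.29e-08).

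The other large rises were on 6p, 2p and 11q. The 6p site, from 56392946 to 56393532, had pileups of 84, 90 and 145 in CRAMP1-KO and 53, 41 and 31 in WT (log2 difference 1.44, limma adjusted p = 4.28e-12). The 2p site, from 89394508 to 89395023, lies among the immunoglobulin kappa gene segments and had pileups of 94, 94 and 122 in CRAMP1-KO and 67, 51 and 26 in WT (log2 difference 1.30, limma adjusted p = 1.47e-10). The 11q site, from 57742272 to 57742847, had pileups of 85, 85 and 145 in CRAMP1-KO and 62, 50 and 32 in WT (log2 difference 1.23, limma adjusted p = 1.76e-10). At the 6p and 11q sites the local background rose too, by 0.63 and 0.53 on the log2 scale.

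The largest fall was on 7q from 63505683 to 63506276, at 1.03 Mb from the gap. Pileups were 12, 14 and 15 in CRAMP1-KO and 46, 44 and 31 in WT (log2 difference -1.45, SE 0.21, limma adjusted p = 3.55e-07). The peaks there spanned 163, 176 and 168 bp in CRAMP1-KO and 432, 594 and 533 bp in WT. The narrowest peaks of the CRAMP1-KO libraries spanned 163, 158 and 168 bp, so these CRAMP1-KO widths were at or near the lower limit. The 2q site from 97593411 to 97594561 had pileups of 26, 27 and 51 in CRAMP1-KO and 111, 103 and 63 in WT (log2 difference -1.34, limma adjusted p = 6.35e-10). The others lay on 17q from 27299214 to 27299893, on 1q from 142631997 to 142632720 and on 8p from 41605086 to 41605737, with log2 differences of -1.28, -1.27 and -1.27. At the 2q, 17q, 1q and 8p sites the local background fell as well, by 0.58, 0.53, 0.48 and 0.47 on the log2 scale, and at 7q it was at the lowest value, with the fixed difference of -0.02. All 10 of these sites kept their call with each library left out in turn, with the replicate block, without the trend and under the depth index.

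**Figure D3:**
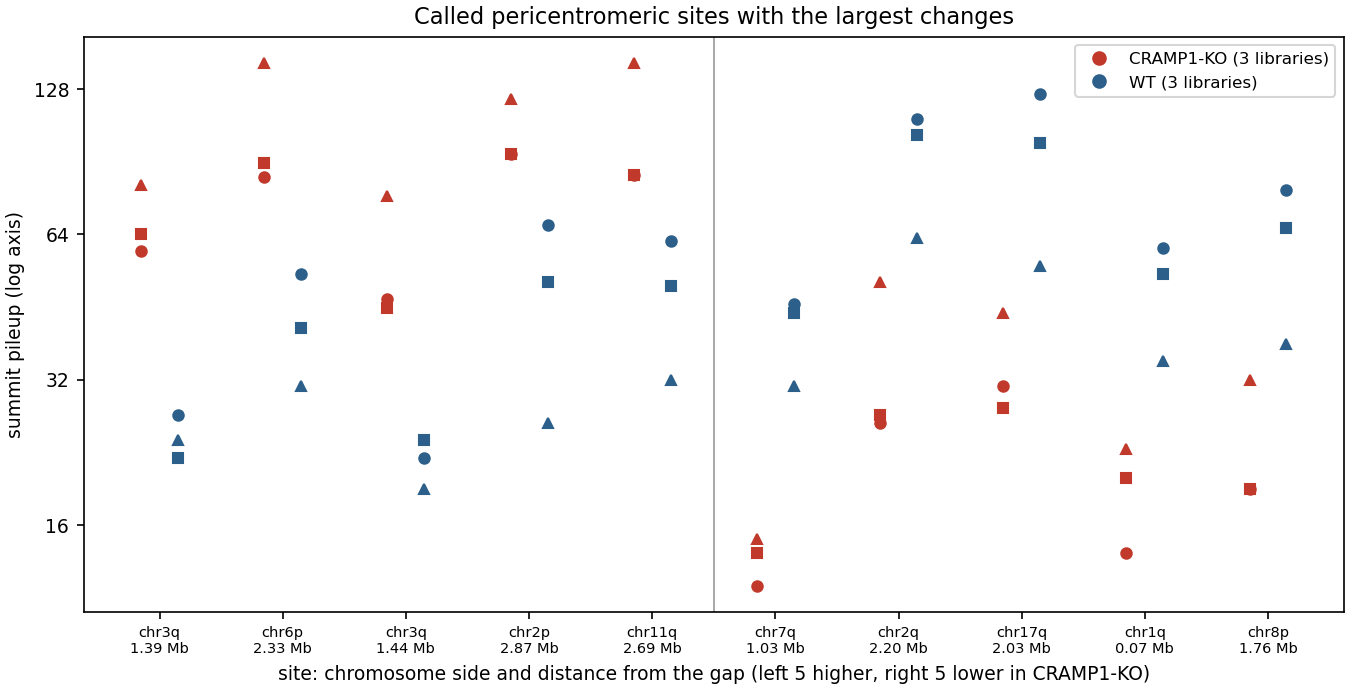
Summit pileup (log axis, not scaled for depth) in each library at the 5 called members with the largest rises (left) and the 5 with the largest falls (right), CRAMP1-KO red and WT blue, with circles, squares and triangles for replicates 1, 2 and 3. The 3q site at 1.39 Mb reads 59 to 81 in CRAMP1-KO and 22 to 27 in WT, and the 7q site 12 to 15 in CRAMP1-KO and 31 to 46 in WT.

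The 5 members with the highest pileup did not pass the test. The highest was a broad site of 3889 bp on 9q from 66454755 to 66458643, with 826, 931 and 1253 in CRAMP1-KO and 1407, 1255 and 809 in WT (log2 difference -0.09, limma adjusted p = 0.715). Next were sites on 1q from 143912922 to 143914338, on 20p from 26189784 to 26190485, on 12p from 32831933 to 32832917 and on 20q from 30160215 to 30161637. The 20p site lay 0.0601 Mb from the gap and stood on a local background of 66.0 to 84.0 in CRAMP1-KO and 54.5 to 70.5 in WT, where the median over shared members was 6.36, 5.88 and 8.52 in CRAMP1-KO and 10.1, 7.83 and 5.03 in WT. Its pileup was 1040, 1111 and 861 in CRAMP1-KO and 987, 981 and 828 in WT (log2 difference 0.20, limma adjusted p = 0.412). Without CRAMP1-KO replicate 3 this site was called higher (limma adjusted p = 0.0206). How reads that map to several places were counted is not given.

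The calls differed between chromosome sides, with no test of a side as a whole. On 2p 28 members rose and 1 fell, with a median log2 difference of 0.21 over 73 shared members. On 3q 10 rose and 1 fell (median 0.24 over 29) and on 3p 9 rose and 0 fell (median 0.25 over 30). In the other direction, 4 rose and 43 fell on 10q (median -0.19 over 174), and 2 rose and 30 fell on 2q (median -0.21 over 134). As shares of the shared members, 38.4% rose on 2p, 34.5% on 3q and 30.0% on 3p, and 24.7% fell on 10q and 22.4% on 2q. More members rose than fell on 12 sides, more fell on 18, and 4 were even. Over all shared regions 9.36% rose and 15.5% fell. Under the depth index 10 rose and 0 fell on 2p, 5 and 0 on 3q, and 4 and 0 on 3p, while 1 rose and 2 fell on 10q and 1 rose and 3 fell on 2q. Relative to the median of all shared regions, which the scaling does not move, the side medians were 0.27 on 2p, 0.30 on 3q, 0.32 on 3p, -0.12 on 10q and -0.15 on 2q.

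The median log2 difference in local background, which on many sides was the fixed value of -0.02, was 0.11 on 2p, 0.15 on 3p and 0.00 on 3q, and -0.08 on 10q and -0.11 on 2q. The shift of a pericentromeric side was not always that of its flank: on 2p the flank had a median log2 pileup difference of -0.33, against 0.21 near the gap, and on 2q -0.03 in the flank against -0.21 near the gap. On 3p the flank differed by 0.22 and the members by 0.25.

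**Figure D4:**
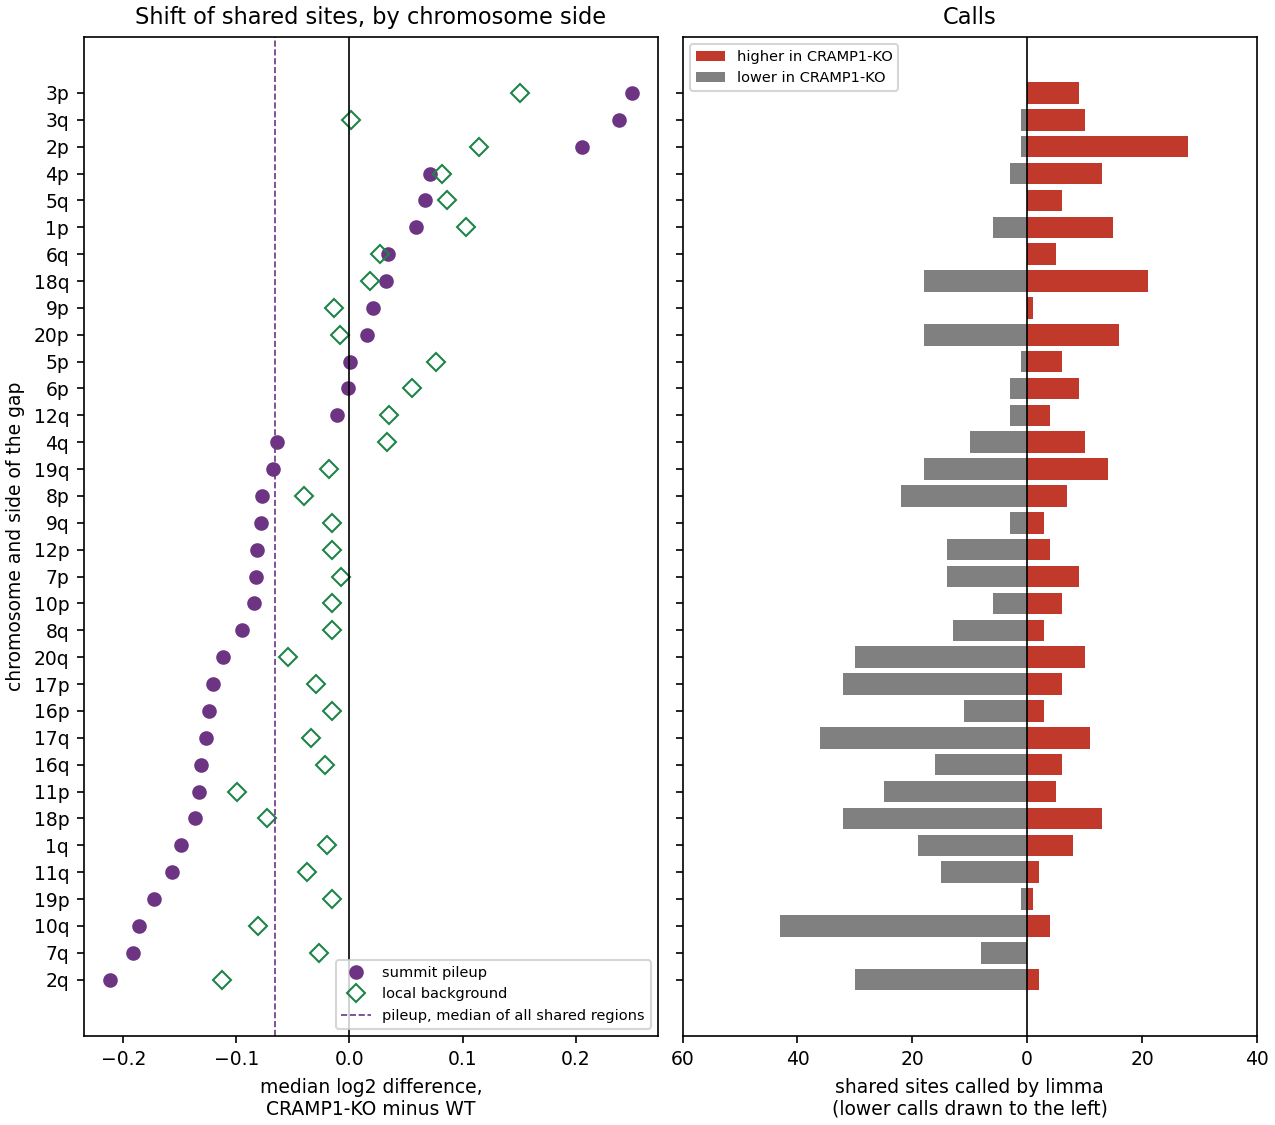
Left, median log2 difference of shared members on each chromosome side, CRAMP1-KO minus WT, for summit pileup (filled) and local background (open), with the pileup median of all shared regions dashed at -0.07. Right, the number of members called by limma on that side, higher calls to the right and lower calls to the left; 2p has 28 higher and 1 lower, 10q has 4 higher and 43 lower.

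In 1-Mb windows counted outward from the gap, tested by their share of all peaks, 9 of 101 pericentromeric windows rose in CRAMP1-KO (8.91%, against a background of 20.6%) and 10 fell (9.90%, against a background of 4.29%). Of 338 flank windows 54 rose and 11 fell (3.25%). The largest rise among called windows was on 12q from 1 to 2 Mb, with 1.48, 1.68 and 1.63 peaks per 10000 in CRAMP1-KO and 1.23, 0.927 and 0.794 in WT (log2 difference 0.70, SE 0.14, limma adjusted p = 0.00895). Next were 1p from 2 to 3 Mb with 0.58, 3q from 2 to 3 Mb with 0.57, the first Mb of 6p with 0.45 and the first Mb of 3q with 0.41 on the log2 scale. The 2p windows at 1 to 2 and 2 to 3 Mb and the 3p windows at 0 to 1 and 2 to 3 Mb also rose, by 0.32, 0.33, 0.31 and 0.27.

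The largest fall among called windows was the first Mb of 7p, with 2.09, 2.18 and 2.22 peaks per 10000 in CRAMP1-KO and 2.94, 3.24 and 2.56 in WT (log2 difference -0.41, SE 0.09, limma adjusted p = 0.0140). The first Mb of 7q, 10q and 8p had log2 differences of -0.39, -0.31 and -0.27. The other called windows were 1 to 2 Mb on 18p, 17p, 19q and 20p and 2 to 3 Mb on 18p and 2q, with log2 differences from -0.28 to -0.23. The median number of WT peaks was 17.7 in windows that rose and 102 in windows that fell, a measure that shares its WT counts with the calls. With a requirement of at least 20 peaks, 4 of 83 windows rose and 9 fell, against 293 and 105 of 1965 over all windows. In lists of equal length 8 of 101 rose and 2 fell, against 299 and 38 of 2345. Scaled to the median log ratio over windows 7 rose and 16 fell, against 352 and 175 of 2353. Without WT replicate 1, 15 rose and 4 fell, against 541 and 88. Without CRAMP1-KO replicate 1, 2 or 3, 7, 5 and 5 rose and 2, 1 and 2 fell. Over all windows 335, 296 and 310 rose and 29, 35 and 39 fell in these settings. Without WT replicate 2, 5 rose and 4 fell, against 339 and 40. The share that fell was near that of all windows in lists of equal length, and below it without CRAMP1-KO replicate 2.

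Genes sit close to the gaps, and most listed starts had an accessible site. Of 127 genes whose hg19 starts were written down from general knowledge, 119 lay within 3 Mb of a gap and matched the spacing to a neighbour in RefSeq. At 104 of them a member within 2 kb of the start was shared by all 6 libraries, in 100 distinct regions, since VPS35 and ORC6, ITFG1 and PHKB, CCT6A and PSPH, and PRKDC and MCM4 share a site. At 7 starts the member was found in fewer libraries, and at 8 (HSD3B1, HSD3B2, MAL, COX4I2, MYLK2, ISL1, ZNF254 and ZNF679) there was none within 2 kb. The nearest to a gap was DCUN1D4 (cullin neddylation) at 0.0120 Mb on 4q, with pileups of 560, 635 and 741 in CRAMP1-KO and 766, 877 and 573 in WT (log2 difference -0.08, limma adjusted p = 0.696).

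With the library median as the scale, 1 of the 104 starts rose (0.962%, against a background of 9.36%) and 25 fell (24.04%, against a background of 15.5%), in 23 regions, with a median log2 difference of -0.19 against -0.07 over all shared regions. These were strong sites, with a median of 267 for the mean pileup. Among all shared regions with a mean pileup above 116, 4.80% rose and 23.03% fell, so the share that fell at gene starts was near that of strong sites in general. Among the 1106 members in that class 48 rose and 215 fell (19.4%). With pileups divided by the depth index 0 gene starts rose and 0 fell, and their median was -0.04 against 0.09 over all shared regions. Without the trend term 1 rose and 5 fell, against 6788 and 9045 of 92505 over all shared regions. Without CRAMP1-KO replicate 1 or 3, 8 and 16 fell, against 10447 and 11133. Without WT replicate 2 or 3, 11 fell each, against 9140 and 9829, and without WT replicate 1, 37 fell, against 14887. The share of gene starts that fell was below that of all shared regions without the trend term or CRAMP1-KO replicate 1. It was near that share without WT replicate 2 or 3, and above it without CRAMP1-KO replicate 3 or WT replicate 1. PRKDC, MCM4, CCNE1, GINS1 and POFUT1 kept their call when any 1 library was left out, with the replicate block and without the trend.

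Among 12 genes of the cell cycle and DNA replication, all with a shared site, 0 rose and 4 fell in 3 of 11 distinct regions, with a median log2 difference of -0.23; 23.03% of strong regions and 15.5% of all shared regions fell. The site shared by PRKDC (the catalytic subunit of DNA-PK, which acts in end joining of DNA breaks) and MCM4 (a subunit of the replicative helicase) on 8q had pileups relative to the library's median of 2.93, 3.15 and 2.88 in CRAMP1-KO and 4.14, 4.05 and 4.81 in WT. The log2 difference was -0.53 (SE 0.10, limma adjusted p = 4.64e-05). CCNE1 (cyclin E1, which drives entry into S phase) on 19q, whose promoter is printed above, stood at 2.80, 3.03 and 2.86 in CRAMP1-KO and 3.72, 3.89 and 4.02 in WT, a log2 difference of -0.42 (SE 0.10, limma adjusted p = 0.000982). GINS1 on 20p stood at 1.51, 1.68 and 1.77 in CRAMP1-KO and 2.24, 2.13 and 2.28 in WT, a log2 difference of -0.43 (SE 0.10, limma adjusted p = 0.00120). In these 3 sites every CRAMP1-KO library lay below every WT library. The strongest sites of the group did not pass: ESCO1 (a cohesin acetyltransferase) had -0.21, TPX2 (a spindle assembly factor) -0.24 and ORC6 (a subunit of the origin recognition complex) -0.27, with limma adjusted p of 0.186, 0.0995 and 0.0686.

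Of 79 metabolic and cell maintenance genes, 68 had a shared site, of which 1 rose and 19 fell in 18 of 66 distinct regions (27.9% of the genes, against 23.03% of strong regions; median log2 difference -0.20). HAO2 on 1p was the rise, at 1.15, 1.13 and 1.10 in CRAMP1-KO and 0.928, 0.793 and 0.792 in WT relative to the library's median (log2 difference 0.43, SE 0.13, limma adjusted p = 0.0121). The HAO2 site lay 749 bp from the listed start and was not called without WT replicate 2 (limma adjusted p = 0.0575). The largest falls were USP46 (a deubiquitinase, -0.37), CSGALNACT2 (chondroitin sulfate synthesis, -0.36) and POFUT1 (protein O-fucosylation, as of Notch receptors, -0.36), with limma adjusted p of 0.00557, 0.00712 and 0.00471. URI1, a prefoldin family protein, had -0.35. The other falls were DUSP2, SNRNP200 (a helicase of the spliceosome), HOOK3, PYGB (a glycogen phosphorylase), CHCHD2, ABHD12, ALG10B, MRPS5 (mitochondrial ribosome), BMS1 (ribosome assembly), DHRS7B, ITFG1, PHKB, BCL2L1 (an inhibitor of apoptosis), SLC20A2 (a phosphate transporter) and NLK, with limma adjusted p from 0.0145 to 0.0472. There were 8 alternatives for a single site: each library left out, the replicate block, and no trend. These other falls kept their call in 1 (BMS1 and MRPS5) to 5 (SNRNP200 and HOOK3) of the 8. USP46 kept its call in 5, CSGALNACT2 and URI1 in 7, and POFUT1 in 8. The strongest sites of this group, at FRYL, DCUN1D4 and KIF21A, did not pass the test, with log2 differences of -0.10, -0.08 and -0.19.

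Among 12 developmental regulators and receptors, 10 had a shared site, of which 0 rose and 1 fell (median log2 difference -0.15, and 0.0075 under the depth index). Over all shared regions 15.5% fell, and 23.03% of strong regions. RET (a receptor tyrosine kinase of neural crest and kidney development) on 10q stood at 1.41, 1.60 and 1.65 in CRAMP1-KO and 1.88, 2.03 and 2.08 in WT, a log2 difference of -0.37 (SE 0.10, limma adjusted p = 0.00657). Its site lay 661 bp from the listed start and kept its call in 6 of the 8 alternatives named above. ID1 (an inhibitor of helix-loop-helix factors), MIB1 (a ubiquitin ligase for Notch ligands), ASXL1 (a Polycomb-associated regulator) and EGFR (the epidermal growth factor receptor) had log2 differences of -0.14, -0.25, -0.18 and -0.22 and did not pass. The site at the start of GATA6, a regulator of endoderm development, was found in 1 library only.

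Of 14 zinc finger genes, 12 had a shared site, of which 0 rose and 1 fell (median log2 difference -0.18). This was 8.33%, against a background of 15.5% over all shared regions and 23.03% of strong regions. Most such genes encode repressors that recruit heterochromatin proteins through a KRAB domain. ZNF2 on 2q was the fall, at 2.13, 2.66 and 2.35 in CRAMP1-KO and 2.93, 2.93 and 2.92 in WT (log2 difference -0.30, SE 0.10, limma adjusted p = 0.0184). The ZNF2 site kept its call in 5 of the 8 alternatives named above. ZNF91, a repressor of SVA retroelements, had the larger value of -0.37 at a low pileup and did not pass (limma adjusted p = 0.0558), nor did ZNF273 (-0.24). ZNF33B on 10q, whose promoter is printed above, had pileups of 604, 690 and 756 in CRAMP1-KO and 901, 956 and 595 in WT, with a log2 difference of -0.13 (limma adjusted p = 0.511). ZNF697 and ZNF33A had -0.10 each. The remaining listed genes, SPAG17 and VSTM2B, had 0.15 and -0.19 and did not pass.

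**Figure D5:**
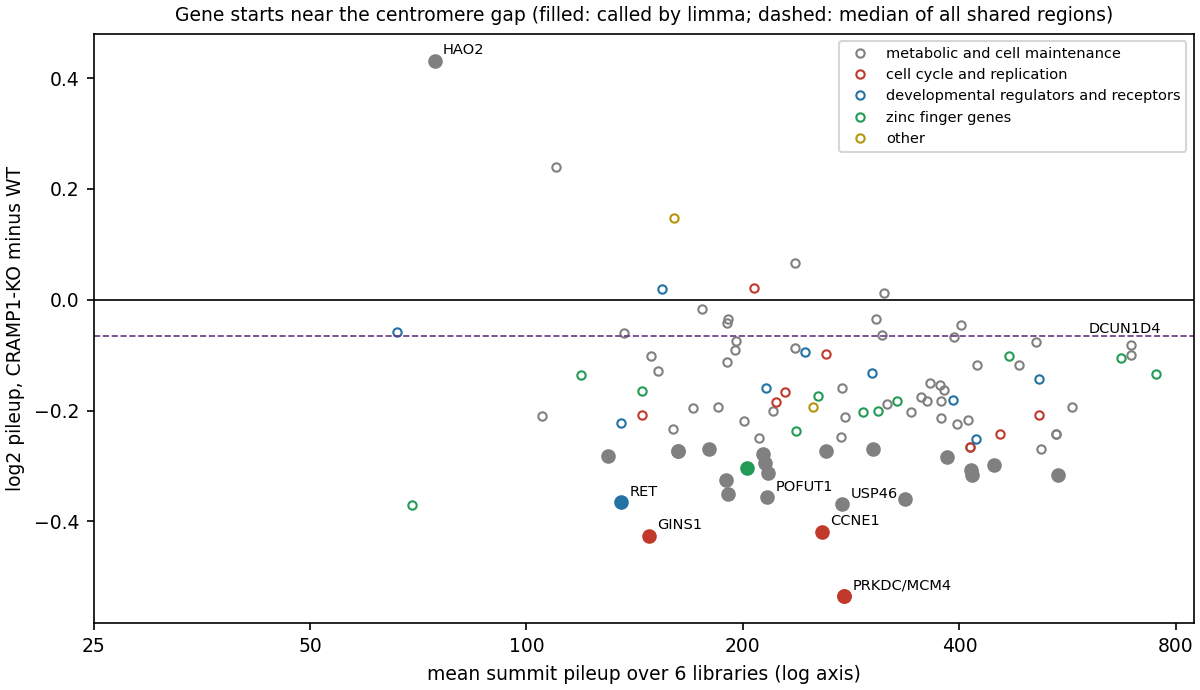
Log2 difference in summit pileup, CRAMP1-KO minus WT, after centring on the library median, against the mean pileup over 6 libraries (log axis) for 104 gene starts with a shared site, coloured by group and filled where called by limma. Of the 26 filled points HAO2 alone lies above 0; the dashed line is the median of all shared regions at -0.07, and no point is called with pileups divided by the depth index.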

How the data were processed

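Per the submitters' processing notes, reads were handled with bcl2fastq 2.20.0, cutadapt 3.4, BWA 0.7.17-r1188 and MACS3, on build hg19; MACS3 settings and the treatment of duplicates and of reads with several placements were not given in the sources used here. Per the labels' protocols, 50000 cells per condition were tagmented for 30 minutes and amplified for 7 PCR cycles. The authors deposited 1 peak list per library, with a score, a fold enrichment (a ratio of pileup to local background), −log10 p and −log10 q per peak. The deposited score was not used. Read totals are unknown, so no counting interval is given. Coordinates of sites are hg19, counted from 1.

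Pileup and local background were solved from fold enrichment and −log10 p, and 100% of pileups were whole within 0.01. The depth index is the lowest background of a library over its narrowest peak. Zones were compared over libraries with two-sided exact permutation tests. Shared regions (log2 pileup, trend) and 1-Mb windows (log2 share, pseudocount 0.5, mean of at least 5 peaks) were fitted with limma 3.58.1 in R 4.3.3 over all features, at a Benjamini-Hochberg adjusted p below 0.05. On simulated data limma called 44% of regions changed by 0.5 and 92% of those changed by 1 on the log2 scale (5% and 79% of windows). Unchanged features were called in 0.00433% and 0.0464%. The simulation had 200 changed features and a dispersion set at 5e-04 for regions and 0.005 for windows. It held no library differences beyond depth or list length, so these rates need not hold for the real libraries. The solver returned 100% of simulated pileups. Python 3.11.15, numpy 2.4.6, pandas 2.3.3, scipy 1.17.1 and matplotlib 3.10.9 did the rest.

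No hg19 annotation was used beyond 1 listed centromere position per chromosome. Gene starts were listed from general knowledge and kept where their spacing to a neighbour lay within 5 kb of that in RefSeq GRCh38.p14 (median difference 0.018 kb, at most 4.516 kb); promoter sequences are RefSeq's. Members, lists and tests were chosen with earlier results of these data known. Named were the 5 strongest members, the 5 largest called changes per direction, the 5 strongest sites of 1 genotype only, called windows, called gene starts, and per gene group the 3 strongest and the 3 most changed. Alternatives were lists of equal length, stricter q, other limits, flanks and overlaps, covered bases, other scalings, the removal of chromosome 18 and of each library, and, chosen after seeing the data, peaks of at least 300 bp.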

Additional observations from a re-analysis of the deposited data

How the results depend on the processing

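The share of peaks near the gap and its ratio to the flank stayed lower in CRAMP1-KO under every alternative run. With a library left out the log2 difference lay between -0.09 and -0.04 for the share and between -0.08 and -0.04 for the ratio, each without overlap. The pileup difference relative to the flank, 0.0037 as reported, was -0.0455 within 2 Mb, and with a library left out lay between -0.00427 (WT replicate 1 left out; -0.00247 with CRAMP1-KO replicate 1 left out) and 0.0337.

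Counts of CRAMP1-KO-only members were 32 within 2 Mb and 88 within 5 Mb, and 60 to 147 with a library left out. WT-only counts were 66 in lists of equal length, 178 within 5 Mb and 55 in peaks of at least 300 bp, and 143 to 379 with a library left out. With a library left out the flank held 282 to 570 CRAMP1-KO-only and 458 to 1146 WT-only regions. Shared members that rose were 90 under the depth index, and 203 to 252 with a library left out. Over all 92505 shared regions 2846 rose under the depth index, and 6155 to 7601 with a library left out. Shared members that fell were 20 under the depth index and 291 without the trend, and 289 to 480 with a library left out. Over all shared regions 458, 9045 and 9140 to 14887 fell in these settings. Windows that rose were 4 at a mean of at least 20 peaks, and 5 to 15 with a library left out. Windows that fell were 16 under the median log ratio and 2 in lists of equal length, and 1 to 9 with a library left out. Over all windows 296 to 541 rose and 29 to 88 fell with a library left out. The causes were not tested.

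Same-numbered libraries did not deviate together (correlations of 0.06, 0.06 and -0.09 in pileup and -0.10, -0.15 and -0.02 in windows). These values show no pairing by number but cannot settle whether same-numbered libraries were made together. With the replicate block 270 shared members rose and 427 fell, and 8 windows rose and 6 fell. Over all 92505 shared regions 8511 rose and 13662 fell with it, and over all 2353 windows 450 rose and 55 fell. Read totals are unknown, so the limit that depth sets on weak sites was not measured.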
